A study of Mus musculus with 10 samples.

Results

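The 10 genes below mark the flat type 1 cell of the lung alveolus, and they were followed across sorted mouse lung epithelium: Ager, Pdpn, Hopx, Cav1, Cav2, Clic5, Rtkn2, Emp2, Akap5 and Gprc5a. They were chosen by symbol, each from probe sets annotated to that gene alone, and where a gene had several, the brightest on average over the 10 arrays stood for it. All 10 were found among 22180 measured genes. The arrays fall into 2 groups of 5, each from mice at postnatal day 4 on a mixed background of C57BL/6, 129S6 and CD-1, with no treatment given in the labels; a description shared by all samples mentions other ages, while titles and age labels give day 4. The SP-C+ group holds cells sorted for YFP from SftpcCreERT2-R26REYFP mice, after lineage tracing for 24 h, so that a Cre under the surfactant protein C gene defines the cells. The Axin2+ group holds cells sorted as TdTomato+, EpCAM+, CD31- and CD45- from Axin2CreERT2-TdTomato mice, where a Cre under the Wnt target gene Axin2 defines them. The labels call both groups type 2 alveolar cells, and mouse line, reporter and gate cannot be told apart from the group. A tracing time is given for the SP-C+ group alone, so it cannot be told apart from the group either. Values are the log2 probe set values that the authors deposited, and a difference is Axin2+ minus SP-C+ on that scale.

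Type 1 cells cover most of the gas exchange surface as extremely thin sheets, and they arise from type 2 cells and their progenitors in the developing and regenerating lung. Their membranes are rich in caveolae, flask-shaped pits whose coat is built from caveolins inside the membrane and cavins on its cytoplasmic side. Ager encodes RAGE, a receptor of the basolateral membrane that is unusually abundant in lung, and Pdpn encodes podoplanin (T1alpha), a mucin-type glycoprotein of the apical membrane. The others act at membranes or the cell cortex, but Hopx encodes an atypical homeodomain protein of the nucleus that does not itself bind DNA. Several of them are also used outside type 1 cells: caveolins in endothelium, podoplanin in lymphatic vessels and mesothelium.

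RefSeq promoter sequences (GRCm38.p6) were held for 8 of the 10 members, Rtkn2 and Gprc5a being those without one. The 250 bases before the start are shown for Pdpn, for the neighbouring genes Cav2 and Cav1, which differed in size of change, and for Emp2, one of the members that changed least. A further Cav1 promoter, chr6:17307390-17307639 on the plus strand, held 0 matches to the searched motifs and is not shown. Each shown sequence is written 5′ to 3′ on the gene's own strand, with capitals where a searched motif was found on either strand.
Pdpn promoter, chr4:143299565-143299814, minus strand: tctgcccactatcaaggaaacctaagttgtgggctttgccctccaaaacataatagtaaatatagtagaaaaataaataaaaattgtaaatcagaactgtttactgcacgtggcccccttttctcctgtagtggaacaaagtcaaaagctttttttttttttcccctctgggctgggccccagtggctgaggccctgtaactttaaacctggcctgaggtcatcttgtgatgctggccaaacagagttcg
Cav2 promoter, chr6:17280935-17281184, plus strand: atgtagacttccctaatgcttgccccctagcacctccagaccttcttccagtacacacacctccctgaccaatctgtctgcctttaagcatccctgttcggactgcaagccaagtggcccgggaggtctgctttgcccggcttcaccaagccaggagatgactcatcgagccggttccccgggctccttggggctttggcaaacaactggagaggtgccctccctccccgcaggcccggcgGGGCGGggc
Cav1 promoter, chr6:17306085-17306334, plus strand: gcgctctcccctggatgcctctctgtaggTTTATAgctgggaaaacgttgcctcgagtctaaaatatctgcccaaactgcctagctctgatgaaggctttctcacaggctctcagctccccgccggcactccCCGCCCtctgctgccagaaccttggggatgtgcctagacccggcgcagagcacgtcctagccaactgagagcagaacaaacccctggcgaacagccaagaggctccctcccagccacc
Emp2 promoter, chr16:10313969-10314218, minus strand: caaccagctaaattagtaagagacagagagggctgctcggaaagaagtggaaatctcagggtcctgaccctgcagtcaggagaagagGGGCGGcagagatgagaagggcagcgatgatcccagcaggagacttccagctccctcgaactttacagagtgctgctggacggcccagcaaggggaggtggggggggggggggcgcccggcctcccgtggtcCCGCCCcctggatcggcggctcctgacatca
Capitals mark GGGCGG, the GC box read by Sp factors, or its reverse complement, and in Cav1 also TATAAA, the TATA box, which lay on the opposite strand at position -221, counted from the start. GGGCGG was present before at least 1 start of 5 of the 8 members (Akap5, Cav1, Cav2, Clic5 and Emp2). Counted by promoter, it was in 5 of the 10 held for members and in 32.7% of all 32851 promoters of the same length. TATAAA was found before 1 member, Cav1 (1 of the 10 member promoters), and in 12.4% of all promoters. GGAATG, the core read by TEAD factors, was found before 0 members and in 12.6% of all promoters. For AGATAA, a site read by zinc finger factors of the haematopoietic and lung lineages, these were 0 members and 9.99%. The motifs searched do not overlap one another in the shown sequences.

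All 10 members were higher in Axin2+ arrays, and 0 were lower (limma with Benjamini-Hochberg adjustment over all genes, threshold 0.05). Over all genes, 17.6% were called, 8.61% higher and 8.95% lower. Of those calls 49.0% were higher, and 26.1% were with each array centred on its median, where all 10 members were still called higher. The median difference of the members was 2.63, against -0.04 for all genes. The rises covered a wide range, from 15.7-fold for the brightest probe set of Rtkn2 to 1.34-fold for Gprc5a. As the mean of its 3 probe sets Rtkn2 rose by 2.77 on the log2 scale, and the largest rise was then that of Pdpn, 3.22 or 9.32-fold. At least 4-fold rises were found for 6 members (0.924% of all genes) and at least 2-fold rises for 7 (2.89%). In 9 members the lowest Axin2+ array lay above the highest SP-C+ array, as it did in 7.38% of genes (15.0% had non-overlapping groups in either direction). Nothing in the labels states that the samples of a group came from separate animals, so p-values cover only sample-to-sample spread, which may be technical. In sorted bulk cells, fewer cells of a type and less RNA per cell cannot be told apart.

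**Figure D1:**
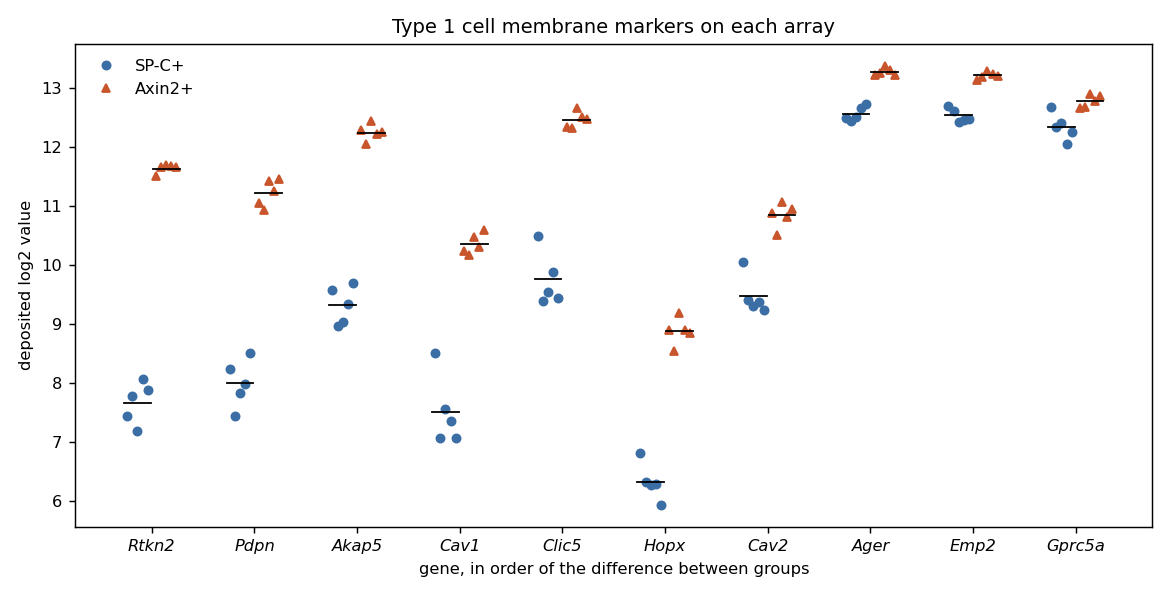
Deposited log2 value of each member on every array, with circles for the 5 SP-C+ arrays, triangles for the 5 Axin2+ arrays and a line at each group mean; within a gene, points run from replicate 1 to 5. The groups stand apart for every gene except Gprc5a, where SP-C+ replicate 1 (12.68) reaches the Axin2+ range.

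**Figure D2:**
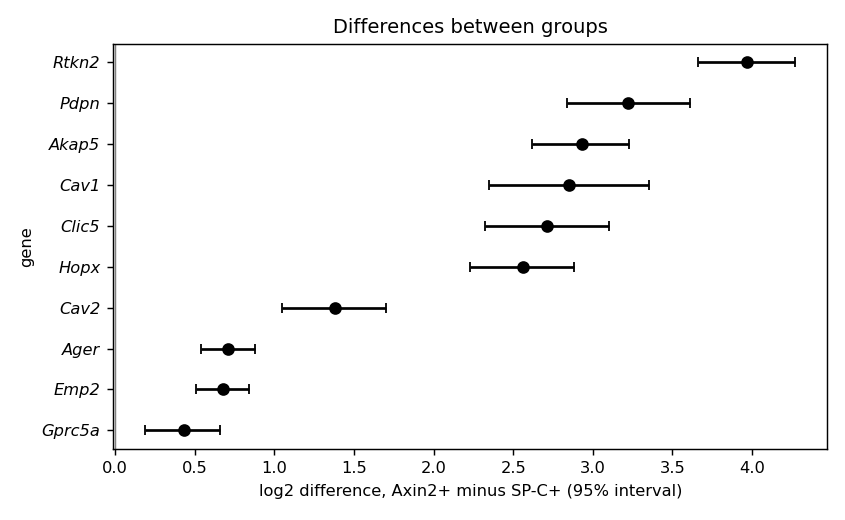
Log2 difference between groups, Axin2+ minus SP-C+, for each member with its 95% interval from limma (n = 5 arrays per group). The differences run from 3.97 for Rtkn2 to 0.43 for Gprc5a, with a gap between Hopx (2.56) and Cav2 (1.38).

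The caveolins, which form the membrane scaffold of caveolae, both rose. Cav1 measured 8.51, 7.06, 7.55, 7.35 and 7.07 in SP-C+ replicates 1 to 5 and 10.23, 10.17, 10.47, 10.30 and 10.59 in Axin2+ replicates 1 to 5. The groups were separated by 1.66 although SP-C+ replicate 1 stood well above the other SP-C+ arrays. The difference was 2.85 ± 0.23 SE, or 7.20-fold (adjusted p = 1.76e-06 in limma). Cav2, whose product needs caveolin-1 to reach the surface in most cells, measured 10.04, 9.41, 9.30, 9.36 and 9.23 in SP-C+ arrays and 10.88, 10.51, 11.06, 10.81 and 10.95 in Axin2+ arrays. Here too SP-C+ replicate 1 was the high array, and 0.47 separated the groups. Cav2 rose by 1.38 ± 0.15, or 2.59-fold (adjusted p = 3.03e-05 in limma). The rise of Cav1 exceeded that of Cav2 by 1.47 (exact two-sided permutation p = 0.00794, adjusted over 45 pairs of members p = 0.0123), although the genes lie side by side on chromosome 6.

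The Rtkn2 rise depended on the choice of probe set, a choice that the other 9 members, with 1 probe set each, did not have. Rtkn2, which encodes the scaffold protein rhotekin 2, measured 7.44, 7.77, 7.19, 8.06 and 7.87 in SP-C+ arrays against 11.50, 11.65, 11.69, 11.67 and 11.66 in Axin2+ arrays. The Axin2+ arrays lay within 0.19 of each other, while SP-C+ arrays spread over 0.87. Its difference of 3.97 ± 0.14 (adjusted p = 9.70e-10 in limma) was the 12th largest rise of all genes. Both further Rtkn2 probe sets also rose, by 3.28 ± 0.34 (adjusted p = 6.44e-05 over all probe sets in limma) and 1.06 ± 0.17 (0.00196). They did not order the Axin2+ arrays alike: replicate 3 was the lowest of them at 8.42 on the first of these, where the others lay between 9.87 and 10.38, and the highest at 5.23 on the second, where the others lay between 4.24 and 4.77.

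Pdpn, whose product binds the actin linkers ezrin and moesin, measured 8.24, 7.43, 7.83, 7.97 and 8.50 in SP-C+ arrays and 11.04, 10.93, 11.42, 11.25 and 11.45 in Axin2+ arrays. The groups were 2.43 apart at their nearest arrays, more than either group's range. Pdpn rose by 3.22 ± 0.18, or 9.32-fold (adjusted p = 5.05e-08 in limma). Akap5, which encodes an anchor that holds protein kinase A and calcineurin at the plasma membrane, read 9.57, 8.96, 9.03, 9.34 and 9.69 in SP-C+ arrays and 12.28, 12.04, 12.44, 12.21 and 12.25 in Axin2+ arrays. SP-C+ replicates 1 and 5 were its higher arrays in that group, and they still lay 2.35 or more below every Axin2+ array. The rise was 2.93 ± 0.14, or 7.60-fold (adjusted p = 1.50e-08 in limma).

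Clic5, a chloride intracellular channel family gene whose product sits with ezrin and radixin under the membrane, read 10.48, 9.39, 9.54, 9.88 and 9.44 in SP-C+ arrays and 12.34, 12.31, 12.65, 12.51 and 12.47 in Axin2+ arrays. SP-C+ replicate 1 was again the highest of its group. The rise was 2.71 ± 0.18, or 6.54-fold (adjusted p = 2.60e-07 in limma). Hopx, the nuclear member, read 6.81, 6.31, 6.26, 6.29 and 5.93 in SP-C+ arrays and 8.90, 8.54, 9.18, 8.90 and 8.85 in Axin2+ arrays. It had the widest spread of any member among Axin2+ arrays, 0.64, against a distance of 1.74 between the groups. The rise of 2.56 ± 0.15, or 5.88-fold, had an adjusted p of 8.76e-08 in limma.

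The members with the smallest rises were a receptor, a tetraspan protein and an orphan receptor. Ager read 12.48, 12.44, 12.51, 12.65 and 12.72 in SP-C+ arrays and 13.21, 13.25, 13.37, 13.30 and 13.22 in Axin2+ arrays, groups that did not overlap. It rose by 0.71 ± 0.08, or 1.64-fold (adjusted p = 2.74e-05 in limma). Emp2, a tetraspan membrane protein gene of the PMP22 family, read 12.69, 12.60, 12.42, 12.46 and 12.47 in SP-C+ arrays and 13.13, 13.18, 13.28, 13.24 and 13.20 in Axin2+ arrays. These too did not overlap, and the rise was 0.68 ± 0.08, or 1.60-fold (adjusted p = 3.33e-05 in limma). Gprc5a, which encodes a retinoic acid-inducible orphan receptor of lung epithelium, read 12.68, 12.34, 12.40, 12.05 and 12.25 in SP-C+ arrays and 12.66, 12.68, 12.89, 12.77 and 12.86 in Axin2+ arrays. It was the one member whose groups overlapped. It rose by 0.43 ± 0.11, or 1.34-fold (adjusted p = 0.0153 in limma), and without SP-C+ replicates 4 and 5 it was at 0.30 and did not pass (adjusted p = 0.0681).

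The probe sets of Ager, Emp2 and Gprc5a were already bright in SP-C+ arrays, with means of 12.56, 12.53 and 12.34 on arrays whose highest value was 14.16. Their means over all arrays lay at the 99.6th to 99.8th percentile of genes, and that of Hopx at percentile 64.2. The part of this brightness in the size of the rises was not tested.

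The question of unequal change between members was asked for all pairs. For each of the 45 pairs of members, the within-array difference of the 2 log2 values was compared between groups by an exact two-sided permutation test, adjusted over the 45 pairs. In 34 pairs it passed at 0.05, where the smallest p that the exact permutations can give is 0.00794. By its brightest probe set, Rtkn2 rose more than each of the 9 others, the closest being Pdpn (0.75 more, adjusted permutation p = 0.0315). This place was lost with the mean over probe sets, where Rtkn2 (2.77) lay below Pdpn (3.22), Akap5 (2.93) and Cav1 (2.85) and 29 pairs passed. Cav2 also differed from all 9 others, lying below Hopx by 1.18 (adjusted permutation p = 0.0123) and above Ager by 0.66 (0.0315). The 11 pairs that did not pass lay within 2 sets. The first held 9 of them, among Pdpn, Akap5, Cav1, Clic5 and Hopx, with differences of 0.08 to 0.66 between their rises and adjusted permutation p from 0.051 to 0.794. The other two pairs set Ager against Emp2 (0.03, 0.731) and Ager against Gprc5a (0.28, 0.132). In the first set Pdpn exceeded Akap5 by 0.30 and passed (0.0315), and in the second Emp2 exceeded Gprc5a by 0.25 (0.0315). With only SP-C+ replicates 4 and 5 kept in that group, 0 of the 45 pairs passed after adjustment and 34 had an unadjusted permutation p under 0.05, the smallest possible being 0.0476.

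Within groups, members tended to be high on the same array. In SP-C+ arrays, replicate 1 held the highest value of 6 members (Cav1, Clic5, Hopx, Cav2, Emp2 and Gprc5a), and 8 of 10 were above their group mean there. Rtkn2 and Ager were below theirs on that array. The same array had the highest mean of the other type 1 cell genes, 8.72 against 8.16 to 8.24 in the other SP-C+ arrays. It also had the highest mean of 12 endothelial markers, 7.11 against 6.01 to 6.54, of 5 lymphatic endothelial markers (6.67 against 5.62 to 6.08) and of 10 fibroblast markers (6.36 against 5.72 to 5.99). The same held for 6 mesothelial markers (5.83 against 5.46 to 5.72) and 10 leukocyte markers (6.82 against 6.48 to 6.59). In Axin2+ arrays the endothelial mean ran from 6.15 to 6.31. The part of those cell types in the level of the members on SP-C+ replicate 1 was not tested. Leaving out the highest SP-C+ array of a gene can only raise its difference, so for those 6 members a fit without replicate 1 tests nothing. Their rises were then 3.10 for Cav1, 2.89 for Clic5, 2.68 for Hopx, 1.52 for Cav2, 0.72 for Emp2 and 0.51 for Gprc5a. In Axin2+ arrays, replicate 3 held the highest value of 8 members and lay above the group mean in all 10. The other type 1 cell genes had their highest mean there too (11.01 against 10.45 to 10.78), and ciliated cell markers did not (7.98, the lowest Axin2+ array).

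**Figure D3:**
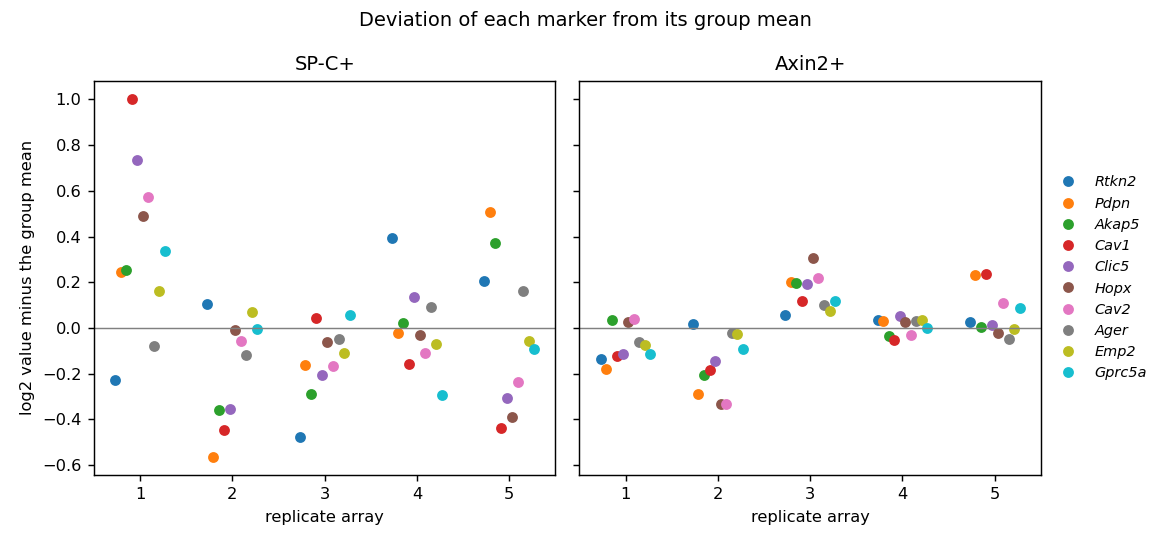
Log2 value minus the mean of the group for each member on each replicate array, for SP-C+ on the left and Axin2+ on the right; each colour is 1 gene and points are set side by side to be seen. SP-C+ replicate 1 lies above the mean for 8 of 10 members and Axin2+ replicate 3 for 10 of 10.

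SP-C+ replicates 4 and 5 differed from replicates 1, 2 and 3 in cell cycle genes, at means of 7.80 and 8.09 against 6.84 to 6.91. The members did not split that way as a set. Replicates 4 and 5 were higher on average for Rtkn2 (7.96 against 7.47), Pdpn (8.24 against 7.84), Akap5 (9.51 against 9.19) and Ager (12.69 against 12.48), and lower for the other 6. Leaving out either set of SP-C+ arrays kept all members called except Gprc5a, as given above.

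Genes that share a machine or a family with the members moved less uniformly. Of 10 caveola coat and neck protein genes, 5 were higher and 1 lower, with a median difference of 0.34. The higher ones were Cavin2 (2.97 ± 0.23, adjusted p = 1.35e-06 in limma) and, named after their values were seen, Cavin3 (2.33 ± 0.14), Cavin1 (means of 9.10 and 10.10), Ehd2, an ATPase of the caveola neck (2.03 ± 0.15), and its relative Ehd1 (0.52 ± 0.11). Ehd1 did not pass as a mean over its probe sets (0.34, adjusted p = 0.122 in limma). Cavin4, the muscle cavin, was at -0.48 ± 0.14 (adjusted p = 0.0388), a call lost in 6 of 10 fits without 1 array (up to 0.0845, without SP-C+ replicate 4). Cavin2 lay between 6.63 and 7.73 in SP-C+ and between 9.57 and 10.65 in Axin2+ arrays, so that the groups did not overlap.

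Relatives of Clic5, Emp2 and Gprc5a did not share their rise as families. Of 4 other Clic genes, Clic4 was lower (-0.58 ± 0.09, adjusted p = 7.47e-04 in limma) and Clic3 was higher (0.58 ± 0.16, 0.0283), a call lost in 7 of 10 fits without 1 array (up to 0.0748, without Axin2+ replicate 3). Of 4 relatives of Emp2, 1 was called higher, and 2 were with array weights or without SP-C+ replicate 1 (2 at an unadjusted p under 0.05). The called gene was Pmp22, the peripheral myelin protein gene, at 1.92 ± 0.30 (adjusted p = 6.02e-04 in limma). Emp1, named after its value was seen, was at 0.60 ± 0.21 and did not pass (0.0731). Of 3 relatives of Gprc5a, 0 were higher (1 at an unadjusted p under 0.05) and Gprc5b was lower (-0.38 ± 0.10, adjusted p = 0.0170 in limma; 0.113 without SP-C+ replicates 1, 2 and 3).

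Among 9 genes for membrane to actin linkers and podoplanin partners, 3 were higher and 0 lower (2 at an unadjusted p under 0.05), with a median of 0.01. With median centring 2 were higher and 3 lower. Among the higher calls, Cd9, a tetraspanin gene named after its value was seen, was at 0.25 ± 0.08 (adjusted p = 0.0432 in limma) and was lost in 7 of 10 fits without 1 array. Podxl, podocalyxin, rose by 1.99 ± 0.18 (adjusted p = 5.53e-06 in limma), and Msn, moesin, named after its value was seen, by 0.99 ± 0.08 (1.79e-06). Of 16 genes for AKAP anchors and the kinase they bind, 5 were higher and 1 lower (5 and 4 with median centring), with a median of 0.00. Akap2, whose transcripts can be shared with its neighbour Palm2 and whose value is uncertain for that reason, rose by 2.45 ± 0.13 (adjusted p = 4.97e-08 in limma), and Akap1, the mitochondrial anchor, was lower (-0.42 ± 0.10, 0.0108; 0.143 without SP-C+ replicates 1, 2 and 3). Of 7 measured genes listed as RAGE ligands or adaptors, 1 was higher and 1 lower. The ligand gene Hmgb1 was at 0.02 ± 0.11 and did not pass. Diaph1, a formin that binds the tail of RAGE, was lower (-0.33 ± 0.07, adjusted p = 0.00378 in limma). The 1 higher gene was Mok (2.02 ± 0.15, 9.61e-07), a protein kinase gene that is neither a ligand nor an adaptor of this receptor.

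Other type 1 cell genes were called higher in 20 of 20 cases, with a median of 2.26 and a range of 0.70 to 4.54. Members and lists were chosen with earlier results of these data known, so this count is not independent support for the members. Spock2, a secreted proteoglycan, lay at the top of that range, and Timp3, a metalloproteinase inhibitor, at the bottom. Ciliated cell markers rose in the same arrays, 13 of 13 with a median of 2.21, as did 6 of 8 club cell markers (median 1.36). Cdhr3, a cadherin-related gene of ciliated cells, rose by 4.36 ± 0.17 (adjusted p = 1.89e-09 in limma), and Scgb1a1, the club cell secretoglobin, by 2.73 ± 0.29 (2.16e-05). List means of ciliated markers ran from 5.47 to 5.72 in SP-C+ and from 7.98 to 8.35 in Axin2+ arrays. The part of other cell types in the members' rise was not tested. Cell cycle genes were higher in 9 of 11 cases (median 1.34), and in 2 without SP-C+ replicates 1, 2 and 3. Cdk1, the mitotic kinase gene, had the largest rise of them (1.96 ± 0.46, adjusted p = 0.00988 in limma), and was at 0.84 (0.238) in that fit and at 2.70 without SP-C+ replicates 4 and 5.

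Markers of other cells, some of which can express members, were measured in the same arrays. Of 12 endothelial markers 0 were higher and 0 lower in limma (0 and 2 at an unadjusted p under 0.05, and 0 and 2 called with median centring), and 3 lay above the median gene in mean level, Pecam1, Cdh5 and Egfl7. Of 5 lymphatic endothelial markers 0 were higher and 1 lower, and of 10 fibroblast markers 0 were higher and 1 lower: Reln, at -0.40 ± 0.12 (adjusted p = 0.0312 in limma; lost in 6 of 10 fits without 1 array), and Pdgfra, at -0.49 ± 0.13 (0.0164; 0.0789 without SP-C+ replicates 1, 2 and 3). The mean of 6 mesothelial markers ran from 5.46 to 5.83 in SP-C+ and from 6.33 to 6.59 in Axin2+ arrays, without overlap. Of the 6, 2 were higher and 0 lower, and the median difference was only 0.09. The part of mesothelial cells in the members' rise was not tested. Msln, mesothelin, rose by 3.12 ± 0.23 (adjusted p = 7.12e-07 in limma) and Upk1b by 1.67 ± 0.40 (0.0118; 0.0560 without SP-C+ replicates 4 and 5 and 0.0515 without replicates 1, 2 and 3). The defining mesothelial gene Wt1 was at 0.04 ± 0.08, with a mean of 6.13 in SP-C+ and 6.17 in Axin2+ arrays. Of 10 leukocyte markers, 1 was higher, Csf1r (2.50 ± 0.15, adjusted p = 8.25e-08 in limma), and 1 lower, Adgre1 (-0.26 ± 0.08, 0.0468). The Adgre1 call was lost in 8 of 10 fits without 1 array. The pan-leukocyte gene Ptprc was dim in both groups, at 4.24 in SP-C+ and 3.94 in Axin2+ arrays. In mean level 3 of the 10 lay above the median gene: Csf1r, Lyz1 (13.88 and 13.91) and Cd68 (10.14 and 9.48).

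Type 2 cell markers, which name both sorted populations, were bright in both. Their mean ran from 12.94 to 13.01 in SP-C+ and from 12.73 to 12.85 in Axin2+ arrays. Of 16, 0 were higher and 4 lower (0 and 9 at an unadjusted p under 0.05), with a median of -0.18. In mean level these markers lay from percentile 97.5 (Cebpa) to 100.0. Sftpc had means of 14.02 in SP-C+ and 14.11 in Axin2+ arrays, where the highest value on any array was 14.16. The part of this brightness in the small size of the differences was not tested. Cebpa, a transcription factor gene of type 2 cell maturation, had the largest fall (-0.62 ± 0.07, adjusted p = 3.81e-05 in limma). With each array centred on its median, 11 of the 16 were lower, and 1 was lower without SP-C+ replicates 1, 2 and 3.

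**Figure D4:**
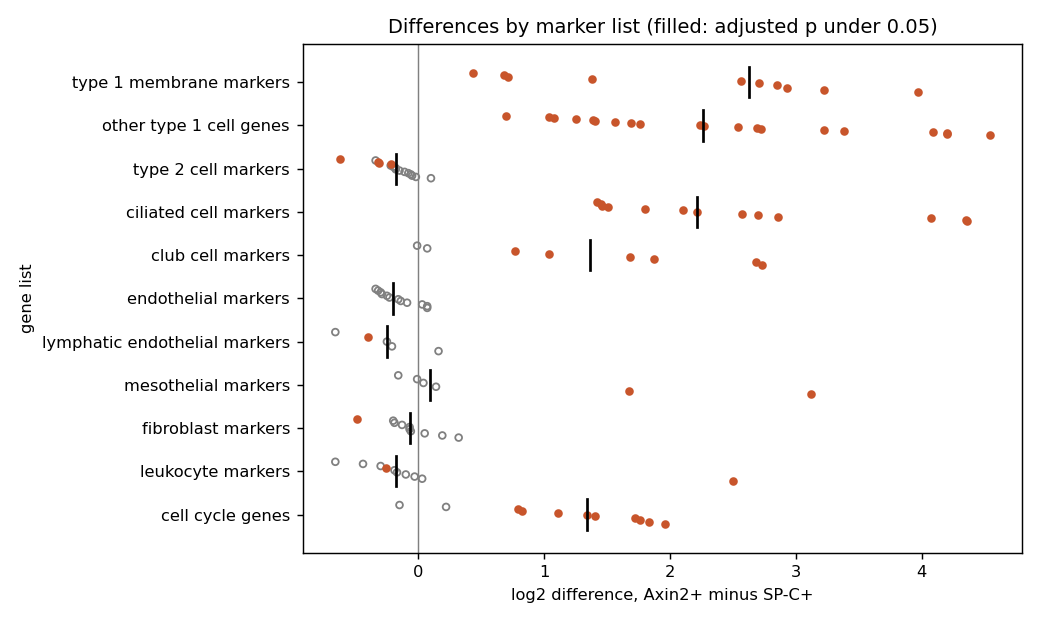
Log2 difference between groups for each gene of the members and of 10 marker lists, with filled points for adjusted p under 0.05 in limma, open points for genes that did not pass and a bar at each list median. Type 1 and ciliated lists lie to the right of 0 (medians of 2.63, 2.26 and 2.21). Medians of the club cell (1.36), cell cycle (1.34) and mesothelial (0.09) lists also lie above 0. Those of the type 2, endothelial, lymphatic, fibroblast and leukocyte lists lie below it, from -0.25 to -0.07.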

How the data were processed

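RNA (100 ng per sample) from 10 sorted samples, 5 per group by title, was hybridised to Affymetrix arrays after poly(T)-primed amplification, per the labels' protocols. The deposited table holds normalized log2 values of 41345 probe sets. Per the submitters' processing notes, the tools were oligo, RMA and limma, with no roles or versions given. The log base was read from the spread of values, 1.69 to 14.16. Background signal adds to every probe, so changes of dim genes come out too small, and the number of arrays limits precision.

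Symbols came from GEO's platform annotation, which can be old (23521 probe sets with 1 symbol, 1814 with several, 16010 with none). All 10 members lay above the 50th percentile of mean level. Differences between groups came from limma 3.58.1 (R 4.3.3) over 22180 genes, two-sided, without covariates; the fit was tested on simulated data. Pairs of members were compared by exact permutation. Replicate numbers occur in both groups without a stated meaning. Of 177 names in 18 further lists, 172 were measured; 1 list is not reported here. Members and lists were chosen with earlier results of these data known. Named were the members, the largest called rise and fall of each list, the neighbours of Cav1, Cav2 and Ager, and the 5 nearest profiles. Alternatives covered scaling, filters, variance models, probe sets, arrays left out and a stricter threshold. Promoters came from RefSeq (GRCm38.p6), and motifs were searched on both strands.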

Additional observations from a re-analysis of the deposited data

Results flagged for a closer look

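In each group of 5, the highest or lowest array was examined for a wide gap to its nearest neighbour, over 20 sets of values (10 members in 2 groups). Chance gives such a gap in about 5% of sets, and 2 were found. Cav2 measured 10.04 in SP-C+ replicate 1, and the gap to the next array took up 0.79 of the range of the group. That array is also the one with the highest SP-C+ mean of other type 1 cell genes (8.72 against 8.16 to 8.24). The same was true of endothelial, lymphatic endothelial, fibroblast, mesothelial and leukocyte markers. Cav2 rose by 1.52 without that array, against 1.38 with it, and leaving out its highest SP-C+ array could only raise the difference. Rtkn2 measured 11.50 in Axin2+ replicate 1, with a gap of 0.77 of a range that was only 0.19 wide.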

How the results depend on the processing

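The count of members called higher was 10 in each fit without 1 array, with either scaling, with either filter on dim genes, with other variance models or array weights, with the mean over probe sets and over all probe sets. It was 9 without SP-C+ replicates 4 and 5 and 9 at an adjusted p under 0.01, where Gprc5a (0.0153) did not pass. With the replicate number as a block, all 10 members and 2979 of 22180 genes were called, against 3894 without it. Same-numbered arrays had correlations of deviations from -0.23 to 0.01, so the numbers did not pair them, and 0 of 5 arrays correlated best with its own number. Centring each array on its median called 5973 genes, of which 26.1% were higher, against 49.0% of calls with the deposited scale, and moved the median difference of all genes from -0.04 to -0.14. At an adjusted p under 0.01, 2249 genes were called. The count of genes with non-overlapping groups was 3334 (15.0%), and it was 5611 when SP-C+ replicates 4 and 5 were left out and 6816 when replicates 1, 2 and 3 were, where fewer arrays must be separated. The test of unequal change between members passed in 34 of 45 pairs of members and in 0 without SP-C+ replicates 1, 2 and 3, where few assignments exist. Of 792 counts for the other lists under alternatives, 685 stayed within 1.5 times the reported count and 107 did not; the cause was not tested. Rtkn2 rose by 2.77 as the mean of its 3 probe sets. The 9 other members had 1 probe set each, so averaging over probe sets left their values unchanged.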

Other observations

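In the RefSeq gene order, 18 measured genes that are not members lie directly beside a member. Of these 5 were called higher in Axin2+ arrays, 1 lower and 12 did not pass in limma, with a median difference of -0.04. Cav2 and Cav1 are neighbours of each other. On the far side of Cav2, Tes, which encodes the focal adhesion protein testin, rose by 0.84 ± 0.09 (adjusted p = 2.56e-05), while on the far side of Cav1, the hepatocyte growth factor receptor gene Met was at -0.22 ± 0.18 (adjusted p = 0.461). Beside Ager, Pbx2 was at -0.10 ± 0.13 (adjusted p = 0.668 in limma), and Rnf5, a ubiquitin ligase gene, at -0.35 ± 0.11 (0.0432), a call lost in 7 of 10 fits without 1 array (up to 0.104, without Axin2+ replicate 3). Named after their values were seen, the 4 other neighbours that were called higher were Tekt5, a tektin gene beside Emp2 (2.93 ± 0.18), Zfp365 beside Rtkn2 (1.09 ± 0.09), Ddx47 beside Gprc5a (0.51 ± 0.09) and Supt3 beside Clic5 (0.40 ± 0.10; adjusted p = 0.117 in limma without SP-C+ replicates 1, 2 and 3). Tekt5 differed more than Emp2 did (0.68), and it belongs to a family of ciliary microtubule proteins.

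The genes whose profile over the 10 arrays was most like the mean profile of the members were found by the root mean square difference of log2 values, each gene centred on its own mean. The 5 nearest were Cttnbp2nl (0.11), Ptpre, a receptor-type phosphatase gene (0.13), Ehd2 of the caveola neck (0.13), Mmp11, stromelysin 3 (0.14), and Fry (0.14). Genes chosen by this distance must differ between groups by about as much as the mean profile does. Their differences ran from 1.98 for Mmp11 to 2.18 for Ptpre, and that of Ehd2 was 2.03. That of Fry was 2.02, and 0.89 as the mean over its probe sets. Of the members themselves Hopx lay nearest to the mean profile (0.26) and Rtkn2, by its brightest probe set, farthest (0.96).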
